A study of Mus musculus with 6 samples.

Results

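The mitosis genes described here are 34 genes whose products drive or mark cell division, out of 18194 genes measured on Affymetrix mouse arrays. They come from a list of 35 named genes, and a gene was kept where a probe set (a group of short probes against the same transcript) was annotated to that gene alone. The brightest probe set over all 6 arrays was used for each gene. Ccnb1, the remaining gene of the list, is not analysed here. The RNA came from E12.5 NSP cells, most likely neural stem and progenitor cells, which were dissected from brains of mouse embryos, cultured on coated dishes and split. In the control group of 3 samples the cells were infected overnight with a lentivirus carrying a control shRNA, and in the REST shRNA group of 3 samples with a lentivirus carrying an shRNA against REST, a repressor of neuronal genes. All samples were collected 6 days after infection. The mouse strain, the share of infected cells and whether replicates were separate cultures are not given in the labels. A p-value here therefore reflects the spread of these 6 samples, part of which may be technical. Arrays carry the numbers 1 to 3 in each group, and the 2 arrays with the same number are called a pair below.

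Mitosis is run by a small set of kinases and by the timed destruction of their regulators. Cyclin-dependent kinase with its A and B cyclins starts chromosome condensation and spindle assembly, the spindle checkpoint holds cells until every kinetochore is attached, and the anaphase-promoting complex then marks cyclin B and securin for destruction so that chromosomes part and the cell divides. Most of these genes are transcribed mainly from S phase to mitosis, so in a neural progenitor culture their RNA is commonly read as a measure of how many cells are cycling, and cells that leave the cycle to become neurons or glia lose them. In bulk RNA fewer dividing cells and less RNA per dividing cell cannot be told apart.

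Most markers of the labelled cell type were detected. Of 11 measured neural progenitor markers 10 had a mean above 3.24, the highest signal of 27 bacterial control probe sets and used here as a background reference, with Sox2, Pax6, Vim and Fabp7 among them. Markers of neurons (12 of 12), astrocytes (8 of 8) and oligodendrocyte lineage cells (8 of 9) also lay above it. So did 13832 of all 18194 genes, and these counts alone do not settle which cell types the cultures held. Of 7 endothelial markers 1 lay above it, of 9 microglial markers 4, and of 8 mesenchymal markers 6. All 4 probe sets of Rest read lower with REST shRNA in every pair, the brightest at 62.5% of control (exact two-sided permutation test p = 0.1 for each probe set, the smallest that 3 against 3 arrays allow).

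No mitosis gene differed between the hairpins beyond the spread of the arrays, while nearly all of them differed by several fold between arrays of the same group. In both groups array 3 read lowest for all 34 genes, a pattern held by 12.9% of all genes. REST shRNA array 2 read highest of the 6 arrays for all 34, against 24.7% of all genes. Within pair 1 all 34 genes read lower with REST shRNA (47.8% of all genes did), and within pair 2 all 34 read higher (48.2% of all genes). In pair 3 the genes divided, with 25 lower and 9 higher, where 38.2% of all genes were lower. Hence 0 of the 34 read higher in every pair and 0 lower in every pair, against 13.6% and 8.99% of all genes.

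**Figure D1:**
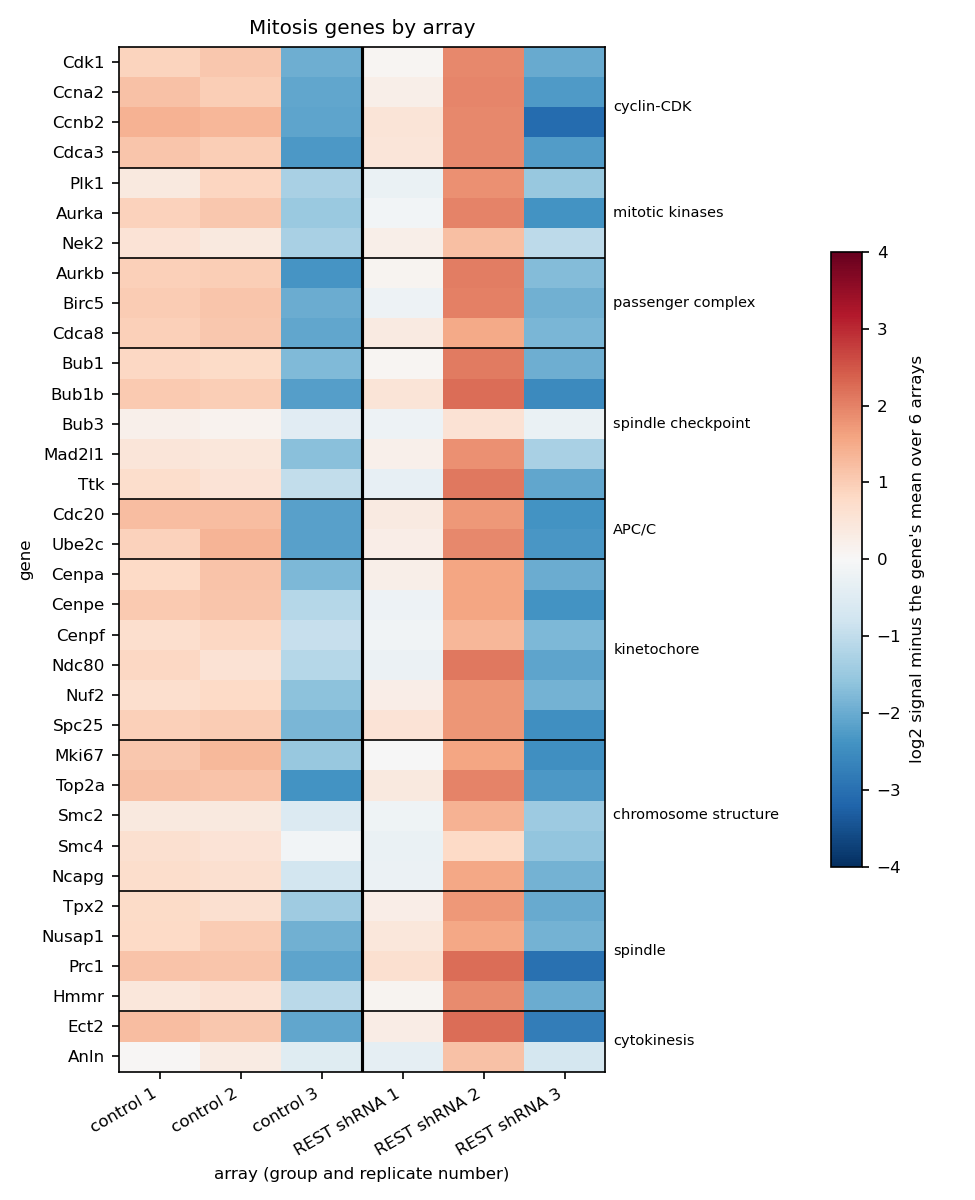
Heat map of the log2 signal of each of the 34 mitosis genes (rows, grouped by role) in each array (columns), as the difference from the gene's own mean over the 6 arrays. Array 3 of each group is blue in every row, REST shRNA array 2 is the reddest column, and Bub3 is the palest row.

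The comparison of REST shRNA with control shRNA gave 0 of 34 genes with an adjusted p under 0.05 in limma, where 0% of all genes passed. At an unadjusted p under 0.05 the count was 0 of 34 in each direction, against 1.78% of all genes higher and 1.07% lower, 2.85% together. With the replicate number as a block both counts were again 0 of 34, where 2.24% of all genes were higher and 1.42% lower at the unadjusted threshold. The log2 differences ran from -0.71 for Smc4 to 0.49 for Mad2l1, with 16 genes higher, 18 lower and a median of -0.07, where all genes had a median of 0.04 and 57.2% were higher. The groups overlapped for every mitosis gene, while for 4.91% of all genes every REST shRNA array was higher and for 2.65% every one was lower. In the fit without the block the median 95% confidence interval of a mitosis gene reached 2.61 log2 units to each side of its difference. A change of less than 6.08-fold was thus within that interval for a typical member, against 1.42-fold for a typical gene of the table. The spread between replicate numbers widened it. With the block the median SE of a member was 0.33 in place of 1.09, and that of all genes 0.20 in place of 0.21. The balance of directions rested on single arrays. The median was 0.99 with 33 genes higher without REST shRNA array 3, -0.95 with 0 genes higher without REST shRNA array 2, and -0.95, again with 0 higher, when control array 3 was left out. Without control array 1 or control array 2 there were 29 genes higher, and without REST shRNA array 1 there were 7. Leaving out pair 1 gave 28 higher genes and leaving out pair 2 gave 1. Leaving out pair 3, whose arrays read lowest for these genes, the median was 0.10 with 22 genes higher.

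The cyclins and the kinase they switch on showed the pattern in full. Cdk1, the kinase that starts mitosis, read 8.77, 8.96 and 5.92 on the log2 scale in control arrays 1, 2 and 3 and 7.97, 9.83 and 5.88 in REST shRNA arrays 1, 2 and 3. Both arrays numbered 3 lay about 2 log2 units or more below every other array, and the groups overlapped fully, with a difference of 0.01 ± 1.17 (SE, log2). Ccna2, the cyclin A of S phase and early mitosis, read 10.19, 9.99 and 6.93 in the control arrays and 9.24, 10.96 and 6.73 in the REST shRNA arrays. Its difference was -0.95 in pair 1, 0.96 in pair 2 and -0.21 in pair 3, so the fitted -0.06 ± 1.26 averages opposite directions. Ccnb2, a B-type cyclin, differed by -0.87, 0.60 and -0.95 in pairs 1, 2 and 3, and Cdca3, which helps to remove the Cdk1 inhibitor Wee1 at mitotic entry, by -0.63, 0.92 and 0.08.

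The other mitotic kinases followed the same arrays. Plk1, which drives centrosome maturation and mitotic entry, read 6.44, 6.93 and 4.76 in control arrays 1, 2 and 3 and 5.79, 7.89 and 4.53 in the REST shRNA arrays. Aurka, the kinase of spindle poles, differed by -1.01, 0.90 and -0.89 in pairs 1, 2 and 3. Nek2, a kinase that separates centrosomes, read 6.33, 6.18 and 4.49 in the control arrays and 6.03, 6.99 and 4.73 in the REST shRNA arrays. It stood among the members with the smallest p on the higher side, at 0.25 ± 0.69 (SE, log2) with an adjusted p of 1 in limma.

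The chromosomal passenger complex corrects faulty attachments of chromosomes to the spindle, and its 3 members here were the only role whose every gene read higher in pair 3. Aurkb, its kinase, read 7.69, 7.71 and 4.38 in control arrays 1, 2 and 3 and 6.84, 8.80 and 5.01 in the REST shRNA arrays. Birc5, survivin, which places the complex at centromeres, read 9.02, 9.10 and 6.02 in the control arrays and 7.78, 10.01 and 6.06 in the REST shRNA arrays. Its pair 1 difference of -1.24 was the most negative of all members in that pair. Cdca8, borealin, differed by -0.60, 0.46 and 0.26 in pairs 1, 2 and 3. In pair 3 Aurkb and Birc5 differed by 0.63 and 0.05, within a pair whose 2 arrays both lay well below the other 4.

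Among the spindle checkpoint genes Bub3 stood apart. Bub3, which carries the checkpoint kinases to kinetochores, read 9.87, 9.81 and 9.22 in control arrays 1, 2 and 3 and 9.45, 10.26 and 9.39 in the REST shRNA arrays. Array 3 was again lowest in each group, but the SD was 0.36 in control, the smallest of the 34 genes, and 0.48 in REST shRNA. Bub1, a checkpoint kinase, read 5.69, 5.62 and 3.10 in the control arrays and 4.94, 6.93 and 2.92 in the REST shRNA arrays, so both arrays numbered 3 lay below the background reference of 3.24 and the real gap may be larger. Mad2l1, the checkpoint protein that inhibits Cdc20, read 7.26, 7.23 and 5.09 in the control arrays and 6.98, 8.60 and 5.47 in the REST shRNA arrays. It had the highest fitted difference of the list, 0.49 ± 0.90 (SE, log2), with -0.28, 1.36 and 0.38 in pairs 1, 2 and 3. Bub1b, which encodes BubR1, differed by -0.52, 1.26 and -0.34 in the pairs, and Ttk, the kinase Mps1, by -1.02, 1.57 and -1.10, with the largest distance between pairs of any member at 2.67.

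The members that feed cyclin B to destruction read alike. Cdc20, the activator of the anaphase-promoting complex, read 9.89, 9.91 and 6.48 in control arrays 1, 2 and 3 and 9.01, 10.40 and 6.28 in the REST shRNA arrays. Ube2c, the ubiquitin-conjugating enzyme of that complex, differed by -0.66, 0.57 and -0.14 in pairs 1, 2 and 3, with a fitted -0.08 ± 1.30 (SE, log2).

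The 6 listed genes of the centromere and kinetochore, the platform on which microtubules attach, read lower with REST shRNA in pairs 1 and 3. Their medians there were -0.70 and -0.75, while all 6 read higher in pair 2, with a median of 0.61. This was not particular to the role. All 34 members read lower in pair 1. The chromosome structure genes had medians of -0.91 and -0.94 in pairs 1 and 3, with 1 of the 5 higher in pair 3. The 2 anaphase-promoting complex and 2 cytokinesis members also read lower in both pairs. Of the 93 further mitosis genes described below, 58 read higher in pair 3. Cenpa, the histone variant that marks centromeres, read 7.61, 7.94 and 5.02 in control arrays 1, 2 and 3 and 7.05, 8.40 and 4.84 in the REST shRNA arrays. Cenpe, a motor that moves chromosomes to the spindle equator, read 7.13, 7.22 and 4.94 in the control arrays and 5.89, 7.68 and 3.70 in the REST shRNA arrays. Its fitted difference was -0.67 ± 1.07 (SE, log2), and a second probe set of it read -0.35. Cenpf, a large kinetochore protein, read 7.95, 8.09 and 6.35 in the control arrays and 7.12, 8.59 and 5.48 in the REST shRNA arrays, a difference of -0.40 ± 0.83. The members in the Ndc80 complex, which grips microtubule ends, differed by less: Ndc80 by -0.17, Nuf2 by 0.09 and Spc25 by -0.10. Spc24, the subunit of that complex outside the list, differed by 0.25.

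Genes that shape chromosomes held both the proliferation marker Ki-67 and the 2 condensin subunits that varied little in control. Mki67, which encodes Ki-67, a coat protein of mitotic chromosomes, read 10.34, 10.55 and 7.75 in control arrays 1, 2 and 3 and 9.26, 10.83 and 6.81 in the REST shRNA arrays. It differed by -1.09, 0.27 and -0.94 in pairs 1, 2 and 3, and the fit gave -0.58 ± 1.15 (SE, log2). Top2a, topoisomerase II alpha, which untangles sister chromatids, read 8.15, 8.10 and 4.58 in the control arrays and 7.35, 8.94 and 4.67 in the REST shRNA arrays. It had the largest SD over the control arrays of all members, 2.05, and a fitted difference of 0.04 ± 1.33.

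Among the condensin genes, Smc4 gave the lowest p of the list, still short of either threshold. Smc4, an ATPase subunit shared by both condensins, read 9.70, 9.61 and 8.94 in control arrays 1, 2 and 3 and 8.78, 9.86 and 7.48 in the REST shRNA arrays. It differed by -0.71 ± 0.58 (SE, log2), with an unadjusted p of 0.262 and an adjusted p of 1 in limma, and its other probe sets read -0.50 and -0.49. Without REST shRNA array 2 its difference was -1.28 with an unadjusted p of 0.0226 and an adjusted p of 0.825 in limma. It was the 1 member of 34 under the unadjusted threshold in that setting, where 5.85% of all genes were. Ncapg, a condensin I subunit, read 8.09, 8.03 and 6.66 in the control arrays and 7.16, 8.94 and 5.50 in the REST shRNA arrays, with a fitted -0.40 ± 0.86. Smc2, the partner ATPase of Smc4, differed by -0.55, 0.98 and -0.88 in pairs 1, 2 and 3. For Smc2 and Smc4 the SD over the control arrays was 0.55 and 0.41, against 1.41 and 1.19 over the REST shRNA arrays.

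The spindle and cytokinesis genes ended the list. Tpx2, which activates Aurora A on spindle microtubules, differed by -0.48, 1.09 and -0.57 in pairs 1, 2 and 3, Nusap1, a microtubule bundler, by -0.34, 0.55 and 0.02, and Hmmr, a spindle-associated protein, by -0.34, 1.30 and -0.88. Prc1, which cross-links the microtubules of the central spindle, had the widest gap between arrays of one group, 4.97 in REST shRNA array 3 against 10.20 in REST shRNA array 2. Anln, anillin, a scaffold of the contractile ring, read 5.24, 5.51 and 4.69 in control arrays 1, 2 and 3 and 4.82, 6.33 and 4.46 in the REST shRNA arrays. Its SD of 0.41 in control was among the smallest of the list. Ect2, the exchange factor that switches on RhoA at the cleavage furrow, differed by -0.94, 1.15 and -0.71 in the pairs and read 2.53 in REST shRNA array 3, below the background reference.

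**Figure D2:**
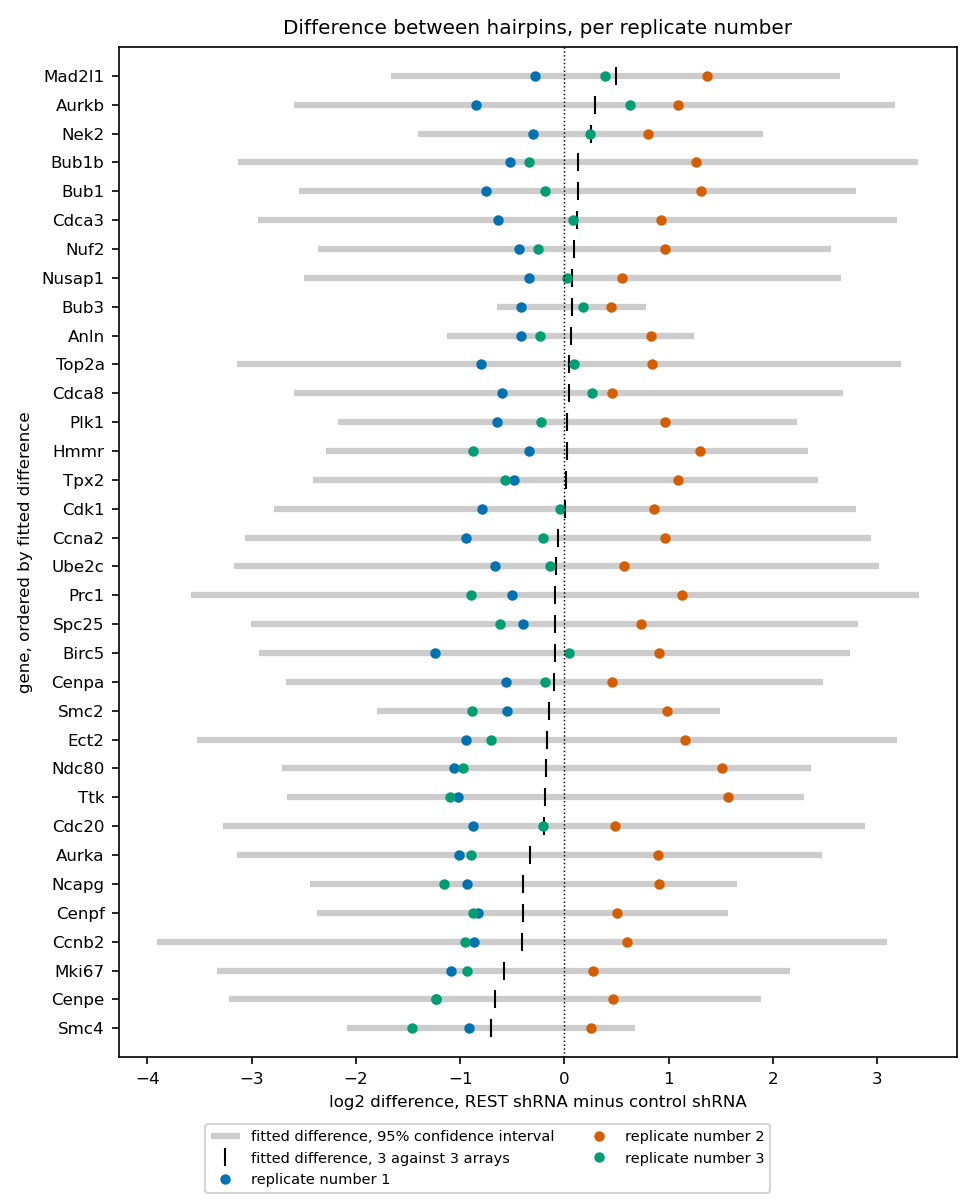
Log2 difference between REST shRNA and control shRNA for each of the 34 mitosis genes, per replicate number (coloured points) and from the fit over 3 against 3 arrays (black ticks, with grey bars for 95% confidence intervals). Every point of pair 1 lies below 0, every point of pair 2 lies above 0, and every interval covers 0.

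The size of the differences between arrays of one group set these genes apart from most of the table. Their median within-group SD, pooled over both groups, was 1.72 log2 units, against 0.26 for all genes. It exceeded 1 log2 unit for 31 of 34 members, all but Bub3, Anln and Smc4, and for 2.95% of all genes. In control, array 3 read a median of 2.63 log2 units below the mean of arrays 1 and 2, or 6.18-fold lower, from -3.55 for Top2a to -0.62 for Bub3. In REST shRNA, array 3 read a median of 3.00 log2 units below the mean of arrays 1 and 2, or 7.99-fold lower, from -4.43 for Prc1 to -0.46 for Bub3. The middle 90% of all genes lay between -0.78 and 0.67 for the first of these differences and between -0.72 and 0.97 for the second. Control arrays 1 and 2 differed little, with a median of 0.02 and a range from -0.24 for Ndc80 to 0.49 for Plk1. REST shRNA arrays 1 and 2 did not match, array 2 reading a median of 3.02-fold higher, from 0.81 log2 units for Bub3 to 2.44 for Ttk. These contrasts between arrays were chosen after the values were seen and carry no test.

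**Figure D3:**
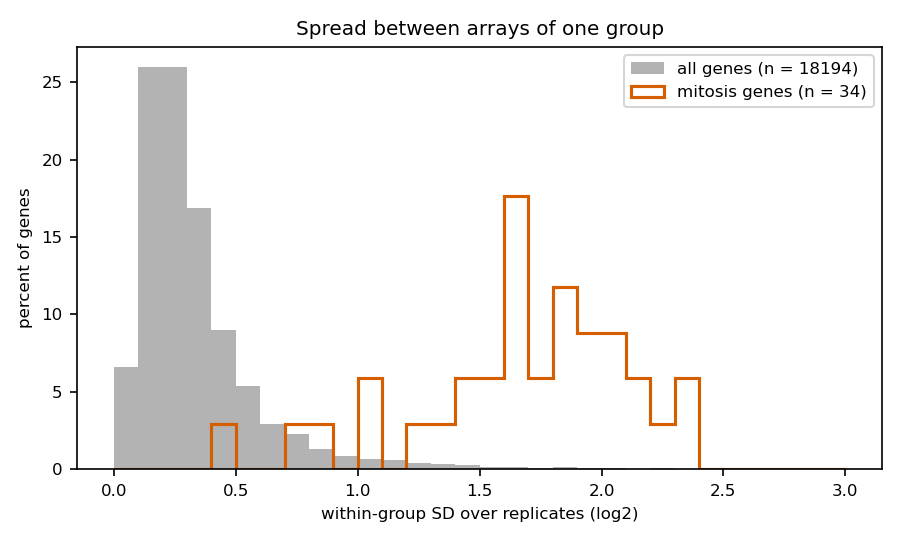
Histogram of the within-group SD over replicates (log2 units, pooled over the 2 groups) for all 18194 genes (grey) and for the 34 mitosis genes (orange outline), each as a percent of its own genes. Of the mitosis genes 31 lie above 1, with a median of 1.72, while the median of all genes is 0.26.

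The full order of the arrays was shared by 33 of the 34 genes. In these REST shRNA array 2 was highest, control arrays 1 and 2 came next, REST shRNA array 1 followed, and both arrays numbered 3 were lowest, an order that 2.97% of all genes had. Smc4 alone did not follow it, since its REST shRNA array 1, at 8.78, lay below control array 3, at 8.94. A term for the replicate number in a fit with the hairpin was tested after the values were seen, with the differences between arrays already known. At an adjusted p under 0.05 (limma) 0 of 34 members passed for the number, where 0.0165% of all genes did, and the members' adjusted p ran from 0.101 to 0.645. At an unadjusted p under 0.05 there were 33 of 34 members, all but Bub3, against 8.65% of all genes. The adjusted count depended on the arrays, at 30 members without pair 2 (1.25% of all genes) and 5 without pair 1 (0.104%). Leaving out pair 3 it was 0, with 2 members at the unadjusted threshold against 3.19% of all genes. The hairpin differences of pairs 1 and 2 had opposite signs for all 34 members. Leaving out either pair removes that disagreement from the residual spread, so no conclusion about the number is drawn from these counts. Leaving out 1 array leaves its number with 1 array, and the counts of those fits are not given.

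Other probe sets of the same genes gave a partial check within the arrays. For 24 members there were 45 further probe sets, 34 of them with a mean above the background reference. Of these 34, 9 had a fitted difference of the opposite sign to the probe set used. Cenpf has a second probe set at -1.02, with -1.12, -0.01 and -1.94 in pairs 1, 2 and 3, which does not share the clear gain in pair 2. Bub3 has 3 dimmer probe sets above the background reference, at 0.19, 0.38 and 0.61, all above the 0.07 of the brightest. The one at 0.38 read higher with REST shRNA in every pair, by 0.27, 0.50 and 0.37, with an unadjusted p of 0.0429 in limma, the single further probe set of any member under 0.05.

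Some promoter motifs that the list did not use were present in a larger share of these genes than of all genes. Genes of this class are known to be held down in resting cells through a cell cycle homology region, searched here as TTTGAA or TTCGAA, and driven by the factor NF-Y at CCAAT boxes. Both strands of the 250 bases before each RefSeq start site (GRCm38.p6) were searched, and 30 of the 34 members had an entry. CCAAT stood in 24 of the 30, against 39.4% of 14453 measured genes with an entry, and at least 2 copies in 17, against 13.4%. A TTTGAA or TTCGAA stood in 12, against 15.7% of genes, and each of these 12 also held a CCAAT, against 5.78%. TTTGAA itself was in 11 members (14.1% of genes) and TTCGAA in 2 (1.92%). None of these motifs stood in the windows of 6 members, Birc5, Mad2l1, Ndc80, Nuf2, Nusap1 and Anln, against 51.7% of genes. The windows of 6 members are shown 5′ to 3′ on the gene's strand, with the matches to these motifs in capitals, chosen from the 12 that hold a TTTGAA or TTCGAA, cyclin, Cdk1 and destruction genes first and then by role, so that both kinds of motif can be seen. The 18 without one, among them Plk1, Aurka, Nek2, Bub1, Ttk and Cdca3, are not shown.
Cdk1, chr10:69352913-69353162, minus strand: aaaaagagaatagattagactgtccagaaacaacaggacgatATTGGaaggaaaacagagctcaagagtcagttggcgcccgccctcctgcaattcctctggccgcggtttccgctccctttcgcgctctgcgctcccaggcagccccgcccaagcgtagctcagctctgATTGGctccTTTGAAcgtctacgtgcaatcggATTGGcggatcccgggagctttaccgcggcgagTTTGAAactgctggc
Ccnb2, chr9:70421555-70421804, minus strand: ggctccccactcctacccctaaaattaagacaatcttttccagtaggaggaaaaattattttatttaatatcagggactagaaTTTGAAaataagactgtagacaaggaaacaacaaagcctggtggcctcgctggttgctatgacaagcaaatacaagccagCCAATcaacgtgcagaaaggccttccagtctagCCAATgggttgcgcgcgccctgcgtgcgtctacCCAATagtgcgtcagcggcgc
Cdc20, chr4:118437344-118437593, minus strand: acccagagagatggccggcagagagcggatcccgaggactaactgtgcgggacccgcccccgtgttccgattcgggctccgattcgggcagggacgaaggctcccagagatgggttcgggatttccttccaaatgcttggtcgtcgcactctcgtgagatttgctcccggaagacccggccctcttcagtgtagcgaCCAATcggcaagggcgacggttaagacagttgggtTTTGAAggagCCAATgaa
Ube2c, chr2:164769679-164769928, plus strand: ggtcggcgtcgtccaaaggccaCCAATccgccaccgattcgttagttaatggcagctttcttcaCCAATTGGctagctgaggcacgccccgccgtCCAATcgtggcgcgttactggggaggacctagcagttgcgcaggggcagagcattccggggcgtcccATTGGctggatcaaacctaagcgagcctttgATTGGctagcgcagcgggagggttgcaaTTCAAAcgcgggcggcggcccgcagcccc
Bub1b, chr2:118597961-118598210, plus strand: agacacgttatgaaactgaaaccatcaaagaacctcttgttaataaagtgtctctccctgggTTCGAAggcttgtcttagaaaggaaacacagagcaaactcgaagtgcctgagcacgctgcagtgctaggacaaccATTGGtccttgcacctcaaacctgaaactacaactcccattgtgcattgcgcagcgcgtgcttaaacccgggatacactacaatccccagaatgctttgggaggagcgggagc
Bub3, chr7:131560120-131560369, plus strand: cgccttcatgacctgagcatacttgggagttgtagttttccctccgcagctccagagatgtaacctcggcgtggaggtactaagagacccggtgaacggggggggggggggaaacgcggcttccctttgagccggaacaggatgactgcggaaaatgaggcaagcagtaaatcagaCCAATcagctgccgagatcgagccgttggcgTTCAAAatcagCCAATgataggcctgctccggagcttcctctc
The match in Cdk1 nearest to its start begins 15 bases before it, that in Cdc20 18 bases and that in Ube2c, on the opposite strand, 29 bases. In Ccnb2 the TTTGAA lies farther out, at 167 bases, behind 3 CCAAT boxes at 87, 54 and 21 bases. Bub3, the member that varied least, holds a TTTGAA on the opposite strand at 43 bases and CCAAT at 74 and 32. These distances are from the first of its 2 RefSeq start sites, and from the other the same matches lie at 167, 198 and 156 bases. A match is a string of letters in this window and was not measured as a bound site. Since these genes were chosen with their shared pattern known, the shares describe the list and carry no test.

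Other genes of the cell cycle were high and low in the same arrays. In a list of 93 further measured mitosis genes (kinesins, kinetochore, condensin and spindle genes), 84 read highest in REST shRNA array 2, against 24.7% of all genes. Array 3 of one group or the other read lowest for 89, as it did for 6496 of all 18194 genes. None passed either threshold in limma, 69 read higher with REST shRNA, and the median was 0.11, with -0.52, 0.79 and 0.10 in pairs 1, 2 and 3. The 2 with the smallest p were Nek7, a kinase of the Nek family, at -0.67 ± 0.29 (SE, log2), and Mad1l1, the partner of Mad2, at 0.32 ± 0.20. With the replicate number as a block Nek7 (unadjusted p of 0.0200, limma) and Oip5, a centromere protein at 0.47 (0.0339), were under the unadjusted threshold, 1 of 93 in each direction, where 2.24% of all genes were higher and 1.42% lower. Of 48 genes of G1/S and DNA replication, 43 read highest in REST shRNA array 2 and 42 lowest in an array numbered 3. Their median was 0.31 with 40 higher, at -0.30, 1.13 and 0.18 in pairs 1, 2 and 3, and 16 of the 48 read higher in pair 1, where none of the mitosis genes did. None of these passed a threshold without the block. With it Ccne1, cyclin E1, at 0.49, had an unadjusted p of 0.0454 in limma. Gins4, a part of the replicative helicase, differed by 0.36 ± 0.19 and Tyms, thymidylate synthase, by 0.68 ± 0.44.

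The 23 genes of a list of factors that switch the mitotic program had a median within-group SD of 0.38, against 1.72 for the mitosis genes, but it exceeded 1 for 4 of them. These were E2f7 (1.95), E2f2 (1.59) and E2f8 (1.16), of the E2F family of cell cycle factors, and Rbl1 (1.02), p107, which restrains that family, picked out after their values were seen. E2f7 ran from 3.11 in control array 3 to 7.52 in REST shRNA array 2. Foxm1, a transcription factor that activates mitotic genes, read 6.73, 6.36 and 5.32 in control arrays 1, 2 and 3 and 5.93, 7.28 and 5.47 in the REST shRNA arrays. Mybl2, B-Myb, which joins the complex bound to the cell cycle homology region, read 3.61, 4.23 and 2.80 in the control arrays and 3.43, 5.32 and 3.37 in the REST shRNA arrays. Its values in control array 1 and REST shRNA arrays 1 and 3 were close to the background reference of 3.24. Control array 3 lay below it, while control array 2 and REST shRNA array 2 lay clearly above. Over the 23 regulators the median difference was 0.07 with 13 higher, and 18 read highest in REST shRNA array 2. Rb1, the retinoblastoma protein that restrains cell cycle entry, had an unadjusted p of 0.0293 (adjusted p of 1, limma), the single regulator of 23 under 0.05, where 2.85% of all genes were. It read 7.94, 7.73 and 7.97 in the control arrays and 7.54, 7.10 and 7.52 in the REST shRNA arrays, so its groups did not overlap, every REST shRNA array being lower, as for 2.65% of all genes.

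Of 13 G1 cyclins, their kinases and CDK inhibitors, none passed either threshold without the block, and 4 read higher with REST shRNA, with a median of -0.14. Ccnd1, cyclin D1, which drives cells through G1, read 7.94, 9.29 and 6.90 in control arrays 1, 2 and 3 and 7.33, 11.10 and 7.43 in the REST shRNA arrays, highest where the mitosis genes were highest. Cdkn1c, the inhibitor p57, read 9.57, 9.56 and 9.23 in the control arrays and 9.78, 7.79 and 9.63 in the REST shRNA arrays, and Cdkn1b, p27, was lowest in REST shRNA array 2 as well, at 9.10 against 9.73 or more elsewhere. Cdkn1a, p21, ranged from 9.72 in REST shRNA array 1 to 11.21 in control array 2, with no such dip. Cdkn1c and Cdkn1b were the only 2 of the 13 genes lowest in REST shRNA array 2, where 27.5% of all genes were lowest. In that array 6 of the 13 read highest (24.7% of all genes), among them the inhibitors Cdkn2c, at 9.69, and Cdkn3, at 7.56. The 2 members of this list with the smallest p were Cdk6, a kinase partner of D-type cyclins, at -1.16 ± 0.63 (SE, log2), and Cdkn2a at -0.36 ± 0.25. With the replicate number as a block Cdk6 had an unadjusted p of 0.0464 in limma.

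Markers of other cell types moved with REST shRNA array 2, the array highest in mitosis genes. Of all genes 27.5% read lowest and 24.7% highest in that array. All 8 astrocyte markers read lowest there, and their summed linear signal was 5129, against 10967 to 14410 in the other 5 arrays. Gfap, the intermediate filament of astrocytes, read 5.58 in that array and 8.85 to 11.73 in the others. Of 9 oligodendrocyte lineage markers 5 read lowest there, with a sum of 6935 against 7833 to 12750, while 2, the lineage factors Olig1 at 11.56 and Olig2 at 10.52, read highest there. Of 11 neural progenitor markers 7 read lowest there and 1 highest, and their sum, 18273, was next to the lowest of the 6, between 18108 in REST shRNA array 3 and 21185 or more in the other arrays. In the arrays numbered 3, where mitosis genes were lowest, the astrocyte sums were 12711 in control and 13976 in REST shRNA, inside the range of the other arrays. The neuron and oligodendrocyte sums were each highest of their group in those arrays. Neuron sums were 4569, 4454 and 5420 in control arrays 1, 2 and 3 and 7056, 5528 and 7911 in the REST shRNA arrays. The groups thus did not overlap, though only narrowly, at 5528 against 5420. Oligodendrocyte sums were 8371, 7833 and 9652 in the control arrays and 10446, 6935 and 12750 in the REST shRNA arrays. Of the 12 neuron markers 9 had a higher fitted level with REST shRNA and 3 a lower one, Dcx (-0.20), Map2 (-0.10) and Elavl4 (-0.21). Of the 12, 5 were higher at an unadjusted p under 0.05 (1.78% of all genes), 7 were higher in every pair (13.6%) and none passed the adjusted threshold in limma. Snap25, a synaptic vesicle fusion protein, had the smallest p of them, at 1.58 ± 0.24 (SE, log2) with an adjusted p of 0.658 in limma. The summed signal of 8 mesenchymal markers was 507, 470 and 156 in control arrays 1, 2 and 3 and 206, 405 and 160 in the REST shRNA arrays, high in the 3 arrays highest in mitosis genes, with Acta2 as its main part there, while Lum and Col3a1 lay below the background reference. The fall of the brightest Rest probe set was -0.28, -1.05 and -0.70 in pairs 1, 2 and 3. The part of cell composition or of the degree of knockdown in the mitosis gene values was not tested.

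**Figure D4:**
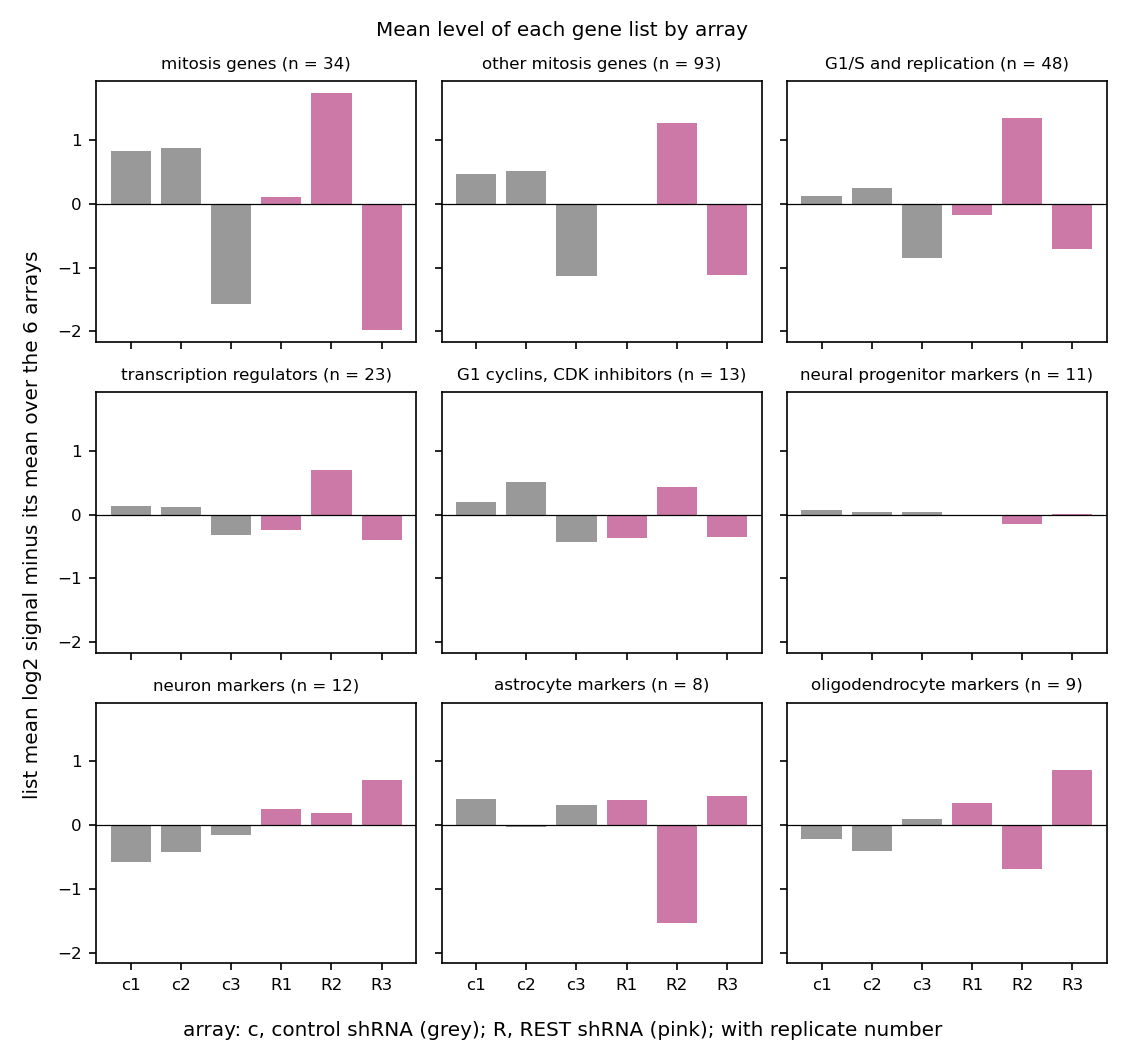
Mean log2 signal of 9 gene lists in each array, as the difference from the list's own mean over the 6 arrays (grey bars, control shRNA; pink bars, REST shRNA; all panels share 1 axis). The mitosis genes range from -1.99 to 1.74, array 3 being low in both groups, while the neural progenitor markers stay near 0 and the astrocyte markers dip in REST shRNA array 2 alone.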

How the data were processed

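Values are the authors' deposited series table, 1 log2 signal per probe set and array (the deposited values span 1.00 to 14.2, the range of such signals). How the authors corrected, summarised and normalized them is not given in the sources used here. Sorted values of the arrays differed from their mean by 0.0224 on average, so no further scaling was applied, and a change of total RNA per cell would not show. Names come from the platform annotation, with 34958 carrying 1 gene, 932 several and 9211 unlisted. The brightest probe set per gene was used. Differences were fitted with limma 3.58.1 (R 4.3.3), the hairpin being the sole term, two-sided, Benjamini-Hochberg over 18194 genes. On simulated data 24.75% of planted 2-fold and 73.75% of planted 4-fold changes passed the adjusted threshold. The simulated noise was independent between genes and arrays, unlike the array order that the mitosis genes share, so it does not test the fit for these members. Promoters are RefSeq's (GRCm38.p6).

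The members, lists and named-gene rule (full values for 14 landmark genes, of which 13 were measured, the 5 smallest p per direction, and the largest and smallest control SD) were chosen with earlier results of these data known. Same-numbered arrays deviated together from their group means (correlations over genes of 0.108, 0.365 and 0.504 for numbers 1, 2 and 3), so the titles' numbers were taken as pairs, although for control array 1 the value with number 2 of REST shRNA was higher, 0.268. Alternatives were the replicate block, scaling, a filter on dim genes, variance models, probe set choices, and leaving out each array or number. The test of the replicate number was added after seeing the data.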

Additional observations from a re-analysis of the deposited data

How the results depend on the processing

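No mitosis gene passed the adjusted threshold under any of the 18 alternatives tried. In the fit with a replicate block 0 members passed either threshold, the lowest unadjusted p was 0.0851 (Smc4) and the median SE was 0.33 in place of 1.09, and the block changed no call for the members or for Rest. Among the other cell cycle lists it brought Nek7, Oip5, Ccne1 and Cdk6 under the unadjusted threshold and no gene under the adjusted one. With array weights 1 of 34 members (Smc4) passed the unadjusted threshold, where 6.19% of all genes did. The median was then -0.94 and 0 members read higher. Leaving out 1 array or 1 number gave 0 to 1 member past the unadjusted threshold, where 1.51% to 5.85% of all genes passed. The median ran from -0.95 to 0.99, with 0 to 33 members higher. The count of members called for the replicate number ran from 0 to 30 when 1 number was left out. Other scalings, probe set choices, the dim-gene filter and the trend changed the sign of at most 4 members, and the pair medians kept their directions. The cause of these changes was not tested. Low signals limit Bub1 and Ect2, which fell under the background reference in 1 or both arrays numbered 3.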

Other observations

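Some genes outside the cell cycle lists shared part of the mitosis pattern, and were picked out after their values were seen. Nes, nestin, the intermediate filament of neural progenitors, read 8.39, 8.57 and 6.87 in control arrays 1, 2 and 3 and 7.95, 9.99 and 6.81 in the REST shRNA arrays, the order of arrays that the mitosis genes had, while Sox2 and Vim, other progenitor markers, stayed between 9.97 and 10.93 and between 12.38 and 12.58. Acta2, smooth muscle actin, read 8.49 and 8.40 in control arrays 1 and 2 and close to these in REST shRNA array 2, the 3 arrays with the highest mitosis signals, and 4.07, 3.55 and 3.71 in control array 3 and REST shRNA arrays 1 and 3. Eomes, a marker of intermediate progenitors, lay below the reference on average.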
